A study of Mus musculus with 12 samples.

Results

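The interferon regulatory factors (IRFs) are a family of transcription factors that bind a shared DNA element in the promoters of interferon genes and interferon-stimulated genes. The members were the 8 genes with the symbols Irf1, Irf2, Irf3, Irf4, Irf5, Irf7, Irf8 and Irf9, out of 55536 genes in the annotation. They were taken by symbol, with earlier results of these data known. All 8 were found and all 8 passed the filter on low counts, which left 18995 genes in the test. Irf4 passed only through the libraries with IFN-γ, and 7 members would have passed on the libraries without IFN-γ alone.

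RNA was measured by bulk RNA-seq in cultured primary oligodendrocyte precursor cells (OPCs), the cells that give rise to myelinating oligodendrocytes, in 12 libraries, 3 for each of the 4 groups. They came from pup brains, collected between postnatal days 4 and 6, and carried Sox10GFP, a green fluorescent reporter of the oligodendrocyte lineage. The cells were taken either by sorting for that reporter or with beads against CD140a, the protein made by Pdgfra, and all groups were grown in medium with PDGFaa and bFGF. Ctr cells received neither agent. EZH2i cells received EPZ011989, an inhibitor of the H3K27 methyltransferase EZH2, at 1.5 µM for 4 days, renewed every 48 h. The IFN-γ group received IFN-γ at 100 ng/ml for 6 h and no inhibitor. The IFN-γ with EZH2i group had the 4 days of inhibitor and then IFN-γ for 6 h with fresh inhibitor. Brains of several pups were pooled for each experiment and the replicates came from different litters, so a replicate is a culture and not an animal. The labels name EAE, a mouse model of multiple sclerosis, as the mouse model of all 12 libraries, while their growth protocol describes pup cultures. The labels do not say which library came from sorting and which from beads.

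IFN-γ signals through a receptor made by Ifngr1 and Ifngr2 and the kinases JAK1 and JAK2, and acts on promoters that hold gamma-activated sites (GAS). Irf1 is a textbook primary target of IFN-γ, and IRF1 in turn binds promoters of antigen presentation genes. IRF3 and IRF7 are held in the cytoplasm until phosphorylated downstream of nucleic acid sensors, and then switch on type I interferon genes. IRF9 is the DNA-binding subunit of the complex ISGF3, IRF2 binds the same element as IRF1 and can act as a repressor of it, and IRF4, IRF5 and IRF8 are best known from B cells and myeloid cells.

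Library totals ran from 17403896 to 66546017 estimated counts with a median of 33625880, and the library with the lowest total was Ctr replicate 2. OPC markers were high in every library, with the 7 genes of that list summing to 6906 to 7640 CPM (estimated counts scaled to library size, TMM-normalized) in Ctr, 6055 to 6478 in EZH2i, 4571 to 6280 with IFN-γ and 4211 to 5047 with both agents. Among those 7 markers, Pdgfra and Cspg4 fell with IFN-γ, by 1.07 and 1.16 on the log2 scale (edgeR's quasi-likelihood test, adjusted p = 0.0141 and 0.00245). The 4 neuron markers summed to 34.7 to 48.0 CPM in Ctr and 48.6 to 85.4 in EZH2i, against 685 to 1278 with IFN-γ and 949 to 1643 with both agents. Tubb3 carried most of that sum, with means of 26.7 CPM in Ctr and 916 with IFN-γ, and Syt1 rose as well, while Snap25 and Rbfox3 did not pass the test. The 5 vascular markers summed to at most 3.44 CPM in any library, and Lum, the one called higher, had 3, 1 and 5 counts in Ctr and passed the filter only through the libraries with IFN-γ. The 6 mature oligodendrocyte markers summed to 1471 to 1839 CPM in Ctr and 1393 to 1611 with IFN-γ. Their sum was lower in every EZH2i library, at 808 to 1287 CPM, than in every Ctr library, and lower with both agents, at 781 to 1272 CPM, than in every IFN-γ library, though none of them was called in any comparison by edgeR's quasi-likelihood test. The 5 astrocyte markers summed to 870 to 1605 CPM in Ctr, 1082 to 1916 in EZH2i, 823 to 1821 with IFN-γ and 1127 to 2093 with both agents, ranges that overlapped, and none of them was called. The part of these markers in the IRF results was not tested. In bulk RNA, more cells of a type and more RNA per cell cannot be told apart.

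The first question was how the family changed after 6 h of IFN-γ in OPCs without inhibitor. Irf1, Irf2, Irf5, Irf7, Irf8 and Irf9 rose, from 2.39-fold for Irf2 to 251-fold for Irf8, and Irf3 and Irf4 did not pass the test. That is 6 of 8 members higher and 0 lower at an adjusted p under 0.05 (edgeR's quasi-likelihood test, Benjamini-Hochberg over all genes tested), where 6.65% of all genes tested were called higher and 2.1% lower. The median log2 fold change was 3.42 over the 8 members and 0.001 over all genes tested. In each of the 6 genes the 3 IFN-γ libraries lay above the 3 Ctr libraries, where 13.5% of all genes tested were separated in that direction.

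**Figure D1:**
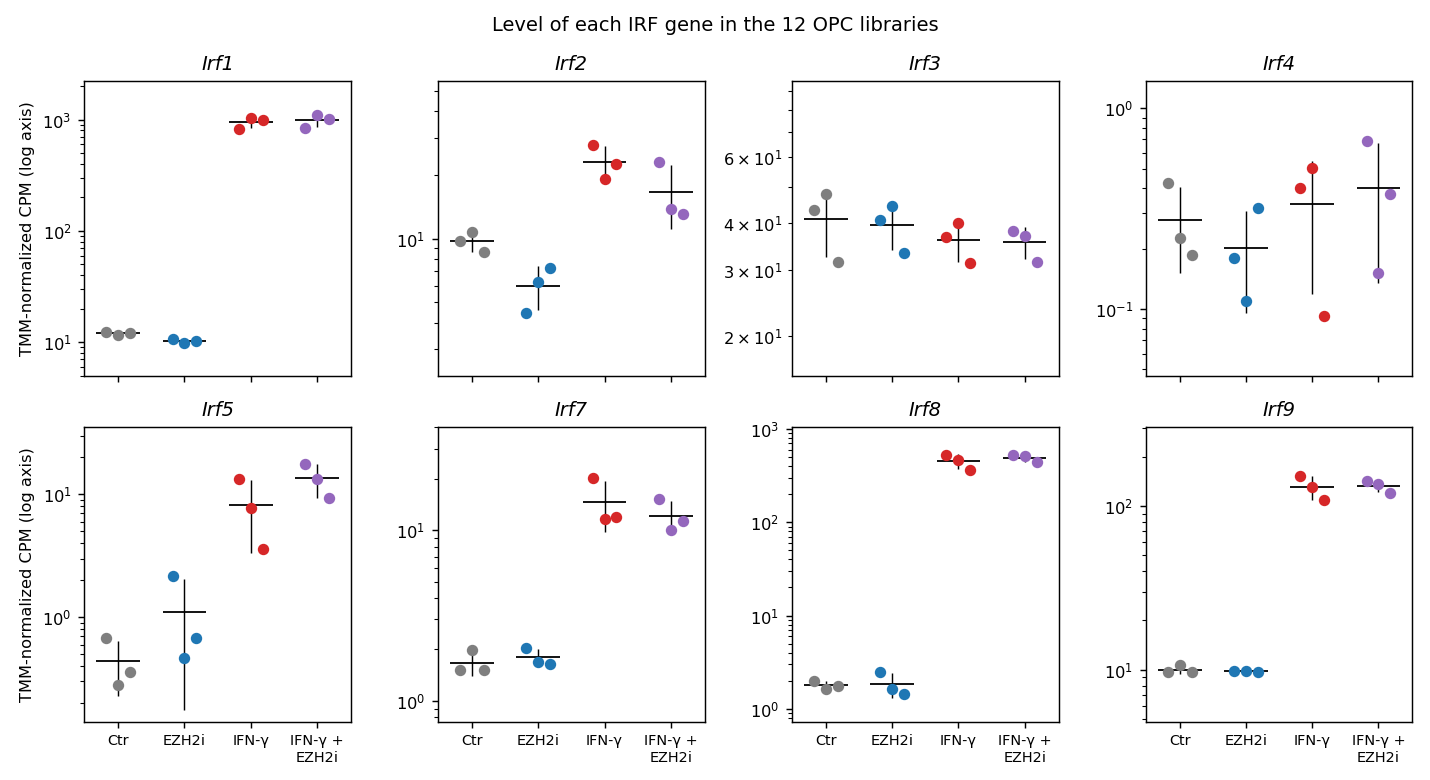
TMM-normalized CPM on a log axis for each IRF gene in the 12 libraries, by group, with points for replicates 1 to 3 from left to right, a horizontal line for the group mean and a vertical line for 1 SD. Irf1 and Irf8 stand apart most between the libraries with and without IFN-γ, Irf3 lies between 31.2 and 47.9 CPM throughout, and Irf4 stays under 1 CPM in every library.

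Irf8 (ENSMUSG00000041515, chr8:120736358-120756694 in GRCm38, plus strand) had the largest fold change of the family. It encodes a factor needed for monocyte, dendritic cell and microglia development that also drives interferon-responsive genes in macrophages. Its level was 1.99, 1.64 and 1.76 CPM in the Ctr libraries. With IFN-γ it was 531, 463 and 367 CPM. The lowest IFN-γ library was thus far above the highest Ctr library, and the spread within each group was small beside the gap between them. This was a log2 fold change of 7.97 (SE 0.25, adjusted p = 8.49e-10, edgeR's quasi-likelihood test), which ranked 68th of 18995 genes by fold change.

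Irf8 is a marker of myeloid cells in brain tissue, so the microglia and macrophage markers were read beside it. The 14 markers read here summed to 2.19 to 2.77 CPM in Ctr, 2.22 to 3.15 in EZH2i, 3.20 to 4.59 with IFN-γ and 2.58 to 3.45 with both agents. The sum was thus higher in every IFN-γ library than in every Ctr library, while the 3 markers that passed the filter were not called in any comparison, and its part in the result for Irf8 was not tested. Cd68, a lysosomal protein gene, made up most of it, with means of 1.57 CPM in Ctr and 2.06 CPM with IFN-γ. P2ry12 had 11, 7 and 38 counts in the Ctr libraries, and Csf1r had 5, 4 and 17. Csf1r passed the filter only through the libraries with IFN-γ. The 3 tested markers, Cd68, P2ry12 and Csf1r, had log2 fold changes of 0.409 to 0.939 with IFN-γ. C1qa had 0 counts in all 12 libraries, and Aif1 had at most 2 counts in any library. The 4 dendritic cell markers summed to 13.5 to 13.7 CPM in Ctr and 14.1 to 20.7 CPM with IFN-γ, nearly all of it Zbtb46, with Siglech at 0 in every library. The 4 B cell markers stayed at or under 1.57 CPM and the 4 T cell markers at or under 0.0335 CPM.

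Irf1 (ENSMUSG00000018899, chr11:53770014-53778374, plus strand) reached the highest level of the family. Its level was 12.3, 11.5 and 12.1 CPM in Ctr and 819, 1035 and 999 CPM with IFN-γ. The groups were separated without overlap, and the 3 Ctr libraries differed by less than 1 CPM among themselves. Its log2 fold change was 6.31 (SE 0.16, 79.3-fold, adjusted p = 2.98e-10, edgeR's quasi-likelihood test).

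The promoters of Irf1 and Irf8 are shown because these genes had the family's largest fold changes, and that of Irf2 because it holds both motifs searched while its fold change was the smallest of the 6. The windows are the 250 bases upstream of the gene's start, 5′ to 3′ on the gene's strand, from RefSeq on GRCm38.p6. Capitals mark matches to GAS, spelled TTCNNNGAA, or to the interferon-stimulated response element (ISRE), spelled as GAAA, any 2 bases and GAAA again, both searched on both strands. The first line is chr11:53769764-53770013, the second chr8:120736108-120736357 and the third chr8:46739495-46739744, all on the plus strand.
Irf1: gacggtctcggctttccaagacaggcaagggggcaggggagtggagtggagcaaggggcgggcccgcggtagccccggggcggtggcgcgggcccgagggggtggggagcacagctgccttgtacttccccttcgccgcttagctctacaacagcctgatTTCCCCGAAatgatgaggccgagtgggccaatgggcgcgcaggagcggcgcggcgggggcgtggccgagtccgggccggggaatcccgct
Irf8: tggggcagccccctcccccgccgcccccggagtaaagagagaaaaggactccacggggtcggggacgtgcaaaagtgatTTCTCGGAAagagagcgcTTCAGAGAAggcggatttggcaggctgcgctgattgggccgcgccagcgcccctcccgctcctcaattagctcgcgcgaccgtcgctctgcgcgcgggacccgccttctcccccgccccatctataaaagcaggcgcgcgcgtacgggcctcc
Irf2: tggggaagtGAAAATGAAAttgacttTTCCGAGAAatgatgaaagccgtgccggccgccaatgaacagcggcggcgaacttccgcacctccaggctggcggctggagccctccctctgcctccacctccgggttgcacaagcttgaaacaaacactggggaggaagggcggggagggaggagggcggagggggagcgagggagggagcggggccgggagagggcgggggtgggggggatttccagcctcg

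The Irf1 window holds 1 GAS match, TTCCCCGAA, whose first base is 90 bases upstream of the start. The Irf8 window holds 2, TTCTCGGAA at 171 and TTCAGAGAA at 153 bases upstream. The Irf2 window holds a GAS match, TTCCGAGAA, at 224 bases and the ISRE match GAAAATGAAA at 241 bases, and the pair does not overlap. All 8 members matched the RefSeq table, with 11 windows in all because Irf1, Irf8 and Irf9 have more than 1 start. Over the full windows, which add the 50 bases downstream of the start, 3 members held a GAS match, 1 held an ISRE match, and 5 held neither (Irf3, Irf4, Irf5, Irf7 and Irf9). Of 32851 windows of the same length over all genes, 8.3% held a GAS match and 3.44% an ISRE match. These shares are per window, while the member counts are per gene over all its windows, so the 2 are not on the same footing. The second windows of Irf1 and Irf8 held no match. A match describes the letters only, and a window without one says nothing of binding elsewhere or to other spellings.

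Irf9 (ENSMUSG00000002325, chr14:55603571-55610030, plus strand), the DNA-binding subunit of ISGF3, was 9.61, 10.7 and 9.70 CPM in Ctr. With IFN-γ it was 153, 131 and 108 CPM. All 3 libraries of the treated group were above 100 CPM and all 3 Ctr libraries near 10 CPM. Irf9 thus rose by a log2 fold change of 3.71 (SE 0.15, 13.1-fold, adjusted p = 5.82e-09, edgeR's quasi-likelihood test). Stat2, whose protein is a partner of IRF9 in ISGF3, rose too, from a mean of 14.1 to 210 CPM.

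Irf7 (ENSMUSG00000025498, chr7:141262706-141266481, minus strand), known as an amplifier of type I interferon production, was 1.52, 1.98 and 1.51 CPM in Ctr. With IFN-γ it was 20.2, 11.6 and 12.003 CPM. Replicate 1 was the highest of the treated libraries, and the lowest treated library was still above every Ctr library. Fitted over all libraries, its log2 fold change was 3.14 (SE 0.27, 8.81-fold, adjusted p = 7.94e-06, edgeR's quasi-likelihood test).

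Irf5 (ENSMUSG00000029771, chr6:29526625-29541871, plus strand), a factor of inflammatory cytokine genes in myeloid cells, was low in Ctr, at 0.674, 0.282 and 0.356 CPM from 19, 5 and 21 counts. With IFN-γ it was 13.4, 7.78 and 3.56 CPM. The highest IFN-γ library was thus several times the lowest, yet each lay above each Ctr library. Its log2 fold change was 4.21 with a wide interval of 2.77 to 5.67 (18.5-fold, adjusted p = 0.00132, edgeR's quasi-likelihood test).

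Irf2 (ENSMUSG00000031627, chr8:46739732-46847458, plus strand) had the smallest change of the 6. It was 9.75, 10.7 and 8.67 CPM in Ctr and 27.8, 19.1 and 22.5 CPM with IFN-γ, with no overlap between the groups. The fitted log2 fold change was 1.26 (SE 0.25, 2.39-fold, adjusted p = 0.00698, edgeR's quasi-likelihood test). With counts rebuilt from TPM scaled by transcript length, the change was 1.20 and the call was lost at an adjusted p of 0.0554 by the same test.

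Irf3 (ENSMUSG00000003184, chr7:44997648-45002848, plus strand), the sensor-activated factor that acts by phosphorylation, was 43.4, 47.9 and 31.6 CPM in Ctr. With IFN-γ it was 36.8, 40.0 and 31.2 CPM. The groups overlapped, and replicate 3 was the lowest library in all 4 groups. The log2 fold change was -0.18 with a 95% interval of -0.56 to 0.20 (adjusted p = 0.666, edgeR's quasi-likelihood test).

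Irf4 (ENSMUSG00000021356, chr13:30749226-30766976, plus strand), a factor of lymphocyte and dendritic cell programmes, was near the limit of detection. It had 12, 4 and 11 counts in Ctr, 5, 4 and 21 in EZH2i, 12, 19 and 6 with IFN-γ, and 16, 5 and 15 with both agents. The groups overlapped in every comparison. The log2 fold change with IFN-γ was 0.22, and its interval of -1.36 to 1.80 allows a fall or a rise of more than 2-fold.

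The second question was whether the same IFN-γ treatment moved the family in cells that had been given EZH2i. Here too 6 of 8 members were called higher and 0 lower, where 5.9% of all genes tested were called higher and 2.17% lower, and the 6 were again Irf1, Irf2, Irf5, Irf7, Irf8 and Irf9. Their libraries did not overlap between the groups in these 6, where 11.8% of all genes tested were separated in that direction. The median log2 fold change was 3.21 over the 8 members and 0.002 over all genes tested. Adding the replicate number to the fit of all 12 libraries left the number of called members at 6 and raised the number of genes called from 1533 to 3661.

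**Figure D2:**
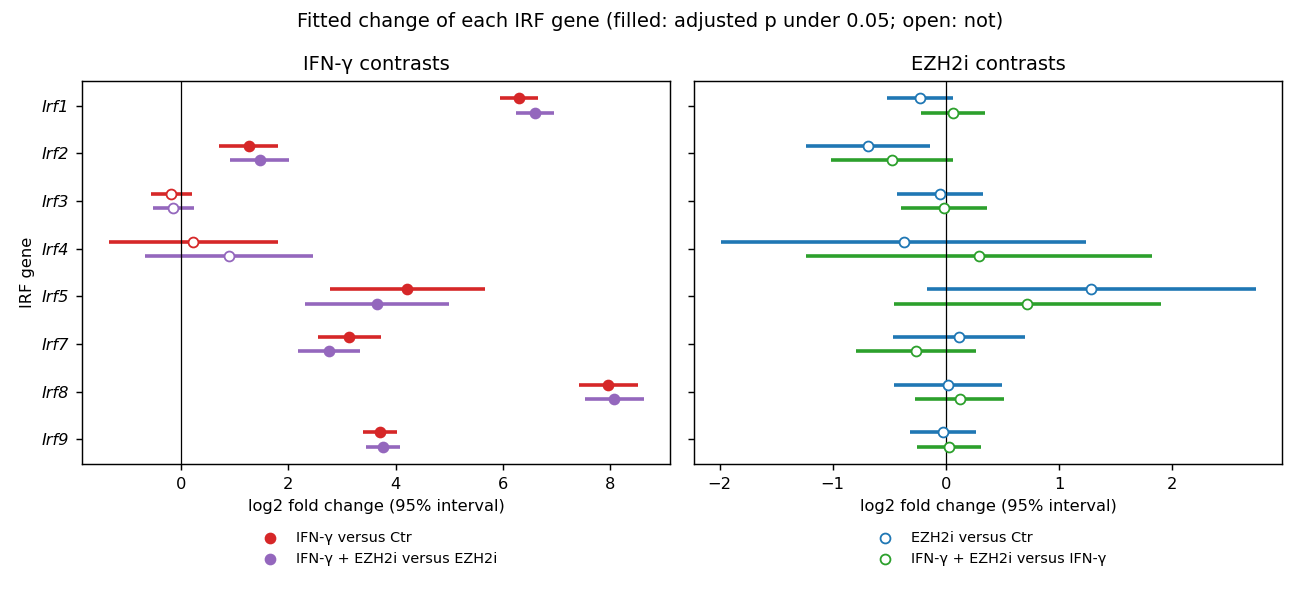
Log2 fold change of each IRF gene with its 95% interval, for the contrasts of IFN-γ on the left and of EZH2i on the right, with filled points for an adjusted p under 0.05. On the left 6 genes have filled points to the right of 0 in both contrasts, and on the right all points are open, with Irf5 (1.28 and 0.72) and Irf2 (-0.69 and -0.48) farthest from 0.

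Irf8 was 2.50, 1.62 and 1.46 CPM in EZH2i and 526, 512 and 442 CPM with both agents, a log2 fold change of 8.08 (SE 0.25, 270-fold). Irf1 was 10.6, 9.89 and 10.2 CPM in EZH2i and 850, 1114 and 1016 CPM with both agents, a change of 6.60 (SE 0.16, 97.1-fold). Irf9 was 9.83, 9.86 and 9.73 CPM in EZH2i and 143, 137 and 120 CPM with both agents, a change of 3.77 (SE 0.15, 13.6-fold). Their adjusted p were 7.63e-10, 2.22e-10 and 4.59e-09 in the order given (edgeR's quasi-likelihood test).

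The other called members had lower levels. Irf5 was 2.18, 0.466 and 0.683 CPM in EZH2i and 17.8, 13.3 and 9.39 CPM with both agents, a change of 3.65 (SE 0.61) that was 4.52 without EZH2i replicate 1. Irf7 was 2.04, 1.70 and 1.65 CPM in EZH2i and 15.2, 10.0 and 11.3 CPM with both agents, a change of 2.76 (SE 0.27). In both genes replicate 1 was the highest library of each of these groups. Irf2 was 4.47, 6.25 and 7.26 CPM in EZH2i and 23.1, 13.9 and 13.0 CPM with both agents, a change of 1.47 (SE 0.25, adjusted p = 0.0026 by edgeR's quasi-likelihood test). That call was lost on length-scaled TPM (adjusted p = 0.0619 by the same test) and with limma on log2(TPM + 1) (adjusted p = 0.153). Irf3 and Irf4 had log2 fold changes of -0.15 (95% interval -0.53 to 0.23) and 0.88 (-0.67 to 2.45).

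The third question was what EZH2i did to the family without IFN-γ. No member was called: 0 of 8 by edgeR's quasi-likelihood test, by DESeq2 and by limma on log2(TPM + 1), where 0.405% of all genes tested were called by edgeR. The median log2 fold change was -0.04 over the 8 members and 0.006 over all genes tested. At an unadjusted p under 0.05 there was 1 member, Irf2, and 7.04% of all genes tested.

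Irf2 stood at 9.72 ± 1.03 CPM (mean and SD, n = 3) in Ctr and at 5.99 ± 1.41 CPM in EZH2i. Every EZH2i library was below every Ctr library, as was so for Irf1, and these 2 members compare with 5.34% of all genes tested that were separated in that direction. The log2 difference of Irf2 was -0.69 with a 95% interval of -1.24 to -0.14 and an adjusted p of 0.489 (edgeR's quasi-likelihood test), so it did not hold over the genes tested. Irf1 had means of 11.98 ± 0.41 CPM in Ctr and 10.2 ± 0.345 CPM with the inhibitor, a log2 difference of -0.23 (-0.52 to 0.06) that turned to 0.12 on the log2(TPM + 1) scale. Irf5 had the largest positive difference, 1.28 (-0.17 to 2.74). It was 0.41 without EZH2i replicate 1, whose 2.18 CPM came from 61 counts, and the other EZH2i libraries overlapped Ctr.

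The remaining members gave intervals that include 0. They were -0.43 to 0.33 for Irf3, -1.99 to 1.23 for Irf4, -0.46 to 0.70 for Irf7, -0.46 to 0.49 for Irf8 and -0.32 to 0.27 for Irf9. Irf9 had the narrowest interval of these 5, which rests on a spread fitted over all 12 libraries. Its SD was 0.0696 CPM over the 3 EZH2i libraries and 0.620 CPM over the 3 Ctr libraries.

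In cells that also received IFN-γ, the inhibitor again gave 0 of 8 called members by edgeR, DESeq2 and limma, where edgeR called 0.353% of all genes tested. Without regard to the replicate number, none had an unadjusted p under 0.05, against 6.42% of all genes tested, and all 8 members overlapped between the groups, where 10.3% of all genes tested were separated. The log2 differences were 0.06 for Irf1 (95% interval -0.22 to 0.34), 0.12 for Irf8 (-0.28 to 0.52) and 0.03 for Irf9 (-0.25 to 0.31). Differences within these bounds were not resolved by this fit, which left the replicate numbers out. With the replicate block described below, the intervals were -0.157 to 0.281 for Irf1, -0.079 to 0.345 for Irf8 and -0.171 to 0.243 for Irf9. The differences were -0.48 for Irf2 (-1.02 to 0.06), 0.72 for Irf5 (-0.46 to 1.90) and -0.26 for Irf7 (-0.79 to 0.27). They were -0.02 for Irf3 (-0.40 to 0.36) and 0.29 for Irf4 (-1.23 to 1.82).

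The replicate numbers were taken as pairing in this comparison, so the same-numbered libraries were also compared. Irf1 and Irf5 were higher with both agents than with IFN-γ alone in 3 of 3 pairs, and Irf2 and Irf7 were lower in 3 of 3, where 23.3% of all genes tested were higher and 23.6% lower in every pair. Irf3, Irf4, Irf8 and Irf9 were higher in 2 pairs and lower in 1. A fit with a replicate block over all 12 libraries, Ctr included, called 0 members. It raised the number of genes called from 67 to 748, or 3.94% of all genes tested. In that fit Irf5 differed by 0.85 on the log2 scale with a 95% interval of 0.31 to 1.40 (unadjusted p = 0.00527, adjusted p = 0.0919, edgeR's quasi-likelihood test). Irf2 differed by -0.49 with an interval of -0.97 to -0.02 (unadjusted p = 0.0423, adjusted p = 0.267, by the same test). These were the 2 members with an unadjusted p under 0.05 in the blocked fit, where 17.3% of all genes tested had one, and the intervals of the other 6 included 0.

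Whether the response to IFN-γ itself differed with EZH2i was tested as an interaction. No member was called (0 of 8 at an adjusted or an unadjusted p under 0.05 by edgeR's quasi-likelihood test), and neither was any of all genes tested, a share of 0%, with 127 genes (0.669%) at an unadjusted p under 0.05. The differences between the log2 responses were 0.29 for Irf1 (-0.11 to 0.69), 0.11 for Irf8 (-0.51 to 0.72) and 0.06 for Irf9 (-0.35 to 0.47). For Irf2 the difference was 0.21 (-0.56 to 0.98), for Irf5 -0.56 (-2.43 to 1.30) and for Irf7 -0.38 (-1.16 to 0.41). These widths show how large a difference in response could have gone unseen by this fit, which left the replicate numbers out.

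Levels were compared between genes in TPM, which divides by transcript length. In Ctr, Irf3 was the most abundant member at a mean of 27.2 TPM, ahead of Irf1 at 5.27 TPM, Irf2 at 3.64, Irf9 at 3.54, Irf8 at 0.54, Irf7 at 0.461, Irf5 at 0.153 and Irf4 at 0.0379. Irf2 and Irf9 overlapped, as did Irf8 and Irf7, and the other neighbours in that order did not. With IFN-γ the order became Irf1 at 441 TPM, Irf8 at 142, Irf9 at 53.0, Irf3 at 28.1, Irf2 at 9.37, Irf7 at 6.98, Irf5 at 4.00 and Irf4 at 0.0572. In this group Irf2 overlapped Irf7 and Irf7 overlapped Irf5. Among all 55536 genes ordered by mean TPM, Irf1 moved from position 8631 in Ctr to position 107 with IFN-γ, and Irf8 from 14233 to 460.

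The order within EZH2i was Irf3 at 32.7 TPM, Irf1 at 5.82, Irf9 at 3.84, Irf2 at 3.41, Irf8 at 0.741, Irf5 at 0.687, Irf7 at 0.575 and Irf4 at 0.0354. There Irf9 overlapped Irf2, and Irf8, Irf5 and Irf7 overlapped in turn. With both agents it was Irf1 at 419, Irf8 at 141, Irf9 at 50.1, Irf3 at 25.2, Irf2 at 6.86, Irf5 at 6.19, Irf7 at 4.93 and Irf4 at 0.0614 TPM. The first 4 positions were the same as with IFN-γ alone, and the next 3 overlapped.

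Summed over the family, the 8 genes came to 34.1, 47.9 and 40.7 TPM in Ctr and 48.0, 54.1 and 41.3 TPM in EZH2i. With IFN-γ the sum was 671, 783 and 598 TPM, and with both agents 680, 722 and 560 TPM. Irf3 held 62.3% to 69.7% of the sum in Ctr and 3.75% to 4.61% with IFN-γ, while its own TPM was 23.0 to 33.4 in Ctr and 22.4 to 36.1 with IFN-γ. Irf1 went from 10.2% to 15.3% of the sum in Ctr to 58.5% to 70.4% with IFN-γ, and Irf8 from 1.12% to 1.5% to 17.2% to 23.9%. The ratio of Irf1 to Irf2 in TPM, the activator against its competitor, was 2.10, 1.19 and 1.36 in Ctr and 44.7, 50.7 and 45.3 with IFN-γ. In EZH2i that ratio was 4.79, 1.30 and 1.11, with replicate 1 apart from the others, and with both agents it was 49.4, 62.8 and 78.3.

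**Figure D3:**
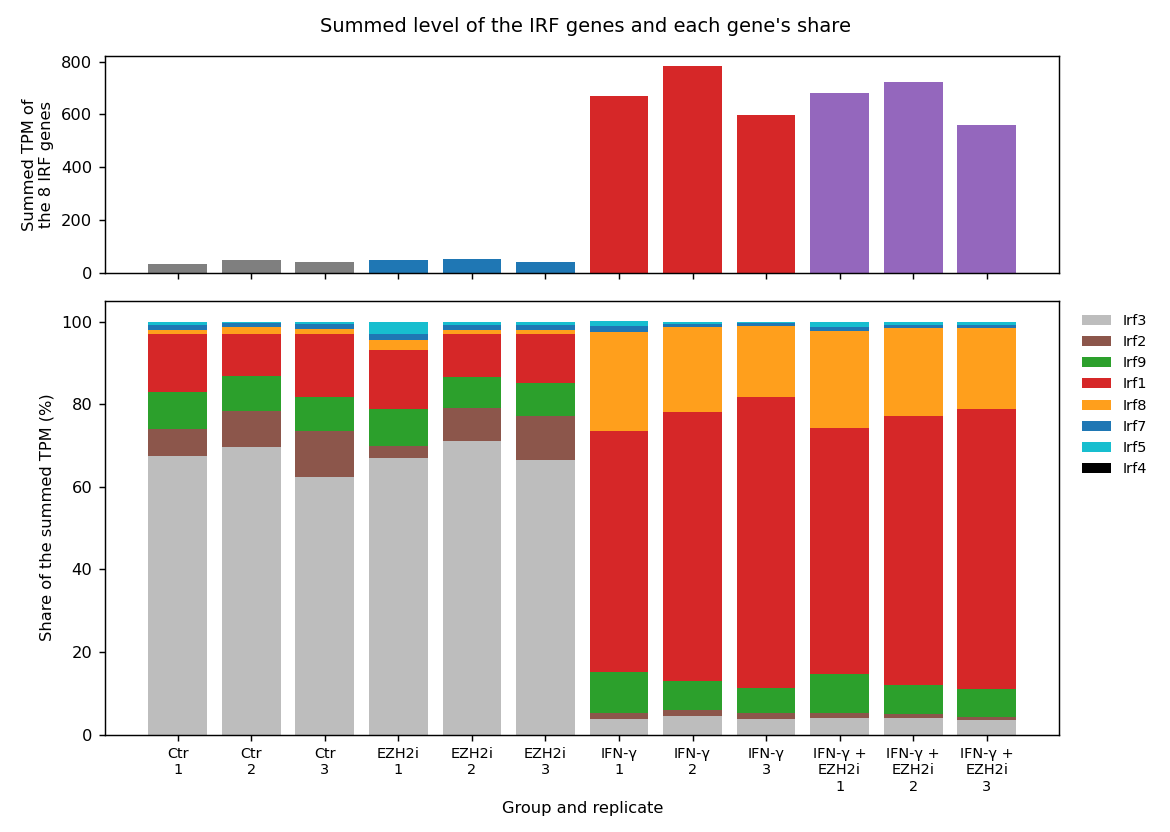
Summed TPM of the 8 IRF genes in each library (upper bars) and the share of that sum held by each gene in percent (lower stacked bars), by group and replicate. The sum lies between 34.1 and 54.1 TPM without IFN-γ and between 560 and 783 TPM with it, and the largest share passes from Irf3 to Irf1.

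The genes around the IRFs were described by lists. Over all genes tested, 6.65% were called higher with IFN-γ and 2.1% lower, and the counts of each list stand beside these shares. Beyond the 2 with the largest change in each list, genes were named after their values were seen. Upstream, 1 of 4 interferon receptor genes rose with IFN-γ, Ifnar2 of the type I receptor, from a mean of 27.1 to 57.0 CPM. The IFN-γ receptor genes themselves were not called, with log2 fold changes of -0.17 for Ifngr1 and -0.42 for Ifngr2. Of 3 JAK kinases 2 rose, Jak2 by 1.28 and Jak1 by 1.10 on the log2 scale, and Tyk2 did not pass the test. The STAT factors Stat2 and Stat3 rose, by 3.90 and 1.62 on the log2 scale.

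Of 13 sensors, adaptors and kinases that lead to IRF3, IRF5 or IRF7 activation, 6 rose and 0 fell. They were the RNA sensors Ifih1 (log2 fold change 4.62) and Ddx58 (3.44), the endosomal receptor Tlr3 (2.81), the adaptor Myd88 (2.47), the DNA-sensing adaptor Tmem173 (1.31) and the IRF3 kinase gene Tbk1 (0.39). The 7 not called included Mavs, Ticam1 and Ikbke. Of 4 feedback inhibitors 3 were called higher, and Ptpn2 was not called. Socs1 rose by 6.77 and Socs3 by 2.27 on the log2 scale. Usp18, with 5, 2 and 36 counts in Ctr, passed the filter only through the libraries with IFN-γ.

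Of 9 factors listed as partners of IRF4 or IRF8 on DNA, 3 would have passed the filter on the libraries without IFN-γ alone, and 1 of these rose, the AP-1 family member Batf3, by 4.88 on the log2 scale. Batf3 had 6, 6 and 18 counts in Ctr, so that fold change rests on few reads. Batf2, of the same family, passed only through the libraries with IFN-γ. It had 1, 1 and 4 counts in Ctr, a mean of 0.0533 CPM, against 59.9 CPM with IFN-γ, and no fold change is given for it. Spi1, which encodes PU.1, the best known partner of IRF8 in myeloid cells, had at most 2 counts in any library, and Batf had 0 in all. The 3 genes of IRF2-binding proteins were not called, with log2 fold changes between -0.14 and -0.08.

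Downstream, 13 of 14 genes listed as known IRF targets were called higher, against 6.65% of all genes tested. This list, like the others, was chosen with earlier results of these data known, so its count is a description and not a test. Of these 13 targets, 10 would have passed the filter on the libraries without IFN-γ alone. The other 3 (Ifi44, Isg15 and Mx1) passed only through the libraries with IFN-γ. Gbp2, a guanylate-binding protein gene, rose by 9.41 to a mean of 5734 CPM, and the chemokine gene Cxcl10 by 8.72 to 295 CPM. The fourteenth, Il12b, had at most 5 counts. None of the 9 type I and III interferon genes listed passed the filter, and the highest count among them was 2, for Ifnb1 in an IFN-γ library. Total counts were between 31769490 and 66546017 in the 3 IFN-γ libraries.

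The same numbers were called in each of these lists in the contrast of IFN-γ with EZH2i against EZH2i, where 5.9% of all genes tested were called higher. There Socs1 rose by 6.61 and Gbp2 by 10.09. No gene of these lists was called in either contrast of EZH2i by edgeR's quasi-likelihood test. Over all genes tested, that test called 0.405% without IFN-γ and 0.353% with it, so few calls would be looked for in lists this short. The nearest was Tap1, a peptide transporter gene of antigen presentation, with means of 9.83 CPM in Ctr and 21.1 CPM in EZH2i (adjusted p = 0.0602).

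**Figure D4:**
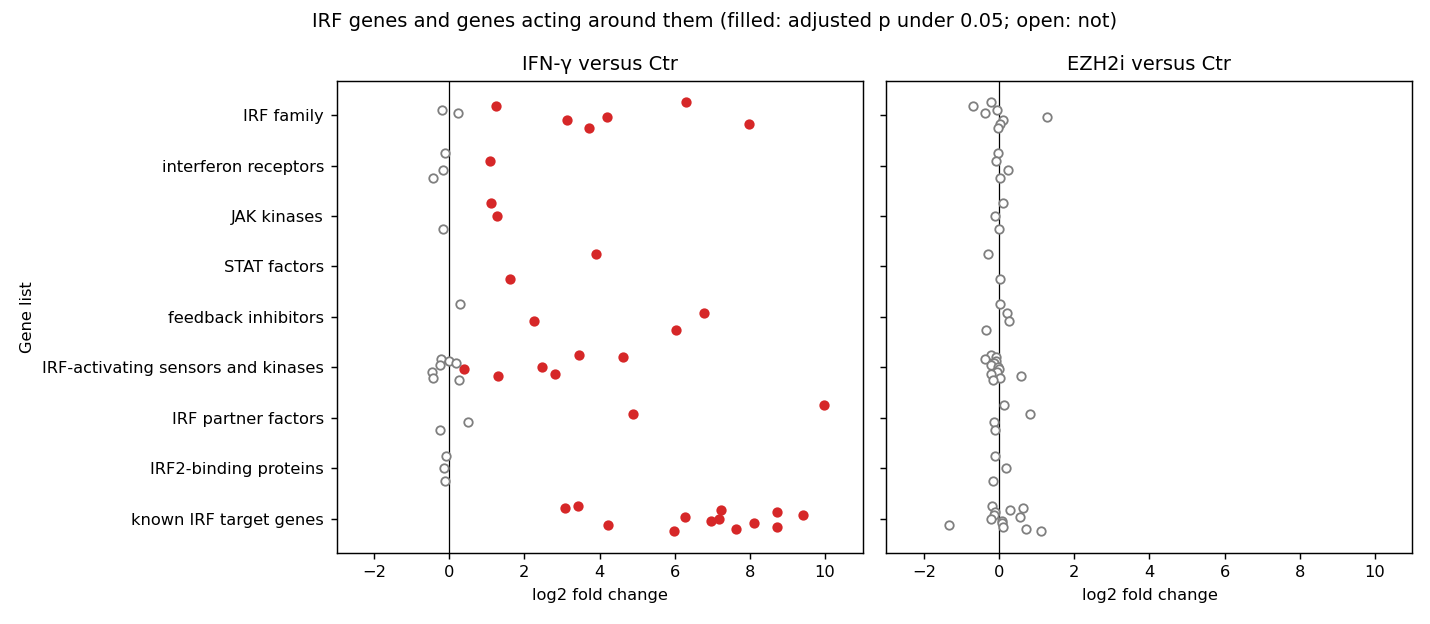
Log2 fold change of each tested gene (points) in the IRF family and in 8 lists of genes around it, for IFN-γ versus Ctr (left) and EZH2i versus Ctr (right), with filled points for an adjusted p under 0.05. Filled points are found in every list but that of the IRF2-binding proteins on the left, and all points are open on the right.

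Genes whose level followed a member most closely were named by Pearson's r of log2(CPM + 1) over the 12 libraries, among 14674 genes with a mean of at least 1 CPM. This is a description, since 6 libraries with and 6 without IFN-γ set most of each r. Closest to Irf1 were Gbp6 and Igtp, both interferon-induced GTPase genes, each at r = 0.9995, and Tgtp1 at 0.9994. Closest to Irf8 were Serpina3f, Gbp4 and Apol6 (0.9993, 0.9993 and 0.999), and closest to Irf9 were Apol6, Batf2 and Uba7 (0.9997, 0.9995 and 0.999). An r over 0.95 was reached by 427 genes with Irf1, 442 with Irf8 and 435 with Irf9.

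The others followed fewer genes or other genes. Irf7 was followed by Lrrc2, Helz2 and Lgals9 (0.9969, 0.9967 and 0.994), with 354 genes over 0.95, and Irf5 by Tnfrsf1b, Rbms1 and Gpat3 (0.9955, 0.9905 and 0.9859), with 118. Irf2 was followed by Ints8 and Pacs1 (0.9622 and 0.9558) and Irf3 to Nit1, Rmnd1 and Dcaf8 (0.9566, 0.9398 and 0.9214), with 5 and 1 genes over 0.95. Irf4 was left out for its low level.

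Several members share sequence positions with other genes, which bears on how their reads were assigned. Irf8 lies within Gm20388, an annotated same-strand gene of chr8:119910841-124345722, whose mean was 49.3 CPM in Ctr, 73.6 in EZH2i, 79.0 with IFN-γ and 108 with both agents. Irf9 overlaps the end of Rnf31 on the same strand, which had a mean of 20.9 CPM in Ctr and 63.4 CPM with IFN-γ. Irf1 overlaps Gm17334 on the opposite strand, at 0.475 CPM in Ctr and 21.0 CPM with IFN-γ. Irf5 and Irf7 each overlap, at 1 end, a neighbour on the opposite strand with a far higher level than their own in Ctr. Tnpo3, beside Irf5, had a mean of 123 CPM in Ctr and 142 CPM with IFN-γ, and Phrf1, beside Irf7, had 115 CPM in Ctr and 132 CPM with IFN-γ. The libraries were stranded, but whether the quantifier used strand is not given in the sources used here. How the estimates divide reads between these members and their neighbours was not tested.

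Estimates for single transcripts gave a different mix of Irf7 with and without IFN-γ. Protein-coding transcripts held 24.5% to 45.1% of the TPM of Irf7 in the 6 libraries without IFN-γ and 54.8% to 83.9% in the 6 with it, and the sets did not overlap. How often other genes separate in this way was not computed. Transcripts annotated as retained intron held 44.5% to 75.5% without IFN-γ and 16.1% to 45.2% with it, and these sets overlapped slightly. One of them, Irf7-213, chosen after its values were seen, held 44.5% to 75.5% by itself without IFN-γ, against 6.61% to 16.8% with it. Irf7 had 35 to 109 counts in the libraries without IFN-γ, so these shares rest on few reads.

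Irf1 has 7 protein-coding transcripts, and the estimated shares of some of them differed with and without IFN-γ. Irf1-202, which begins where the promoter window shown above ends, held 17.9% to 58.5% of the TPM of Irf1 without IFN-γ and 65.5% to 76.6% with it. Irf1-201, which begins farther downstream at chr11:53770495, held 19.6% to 40.2% without IFN-γ and 0.02% to 10.0% with it. With both agents its share was 0.02% in replicate 1, against 9.67% and 9.89% in replicates 2 and 3. The estimated split thus varied between replicates, and the share of other genes whose transcripts separate in this way was not computed. Irf8-201 held 49.1% to 100% of Irf8 without IFN-γ and 85.3% to 92.5% with it, so these sets overlapped.

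Irf3 and Irf9 had mixes that overlapped. Protein-coding transcripts held 43.4% to 61.3% of Irf3 without IFN-γ and 42.3% to 53.4% with it, and 47.2% to 71.1% of Irf9 without and 50.1% to 73.2% with it. The libraries were made from total RNA, which includes unspliced transcripts, and the division among transcripts of 1 gene is the quantifier's estimate, so no test was run on these shares.

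**Figure D5:**
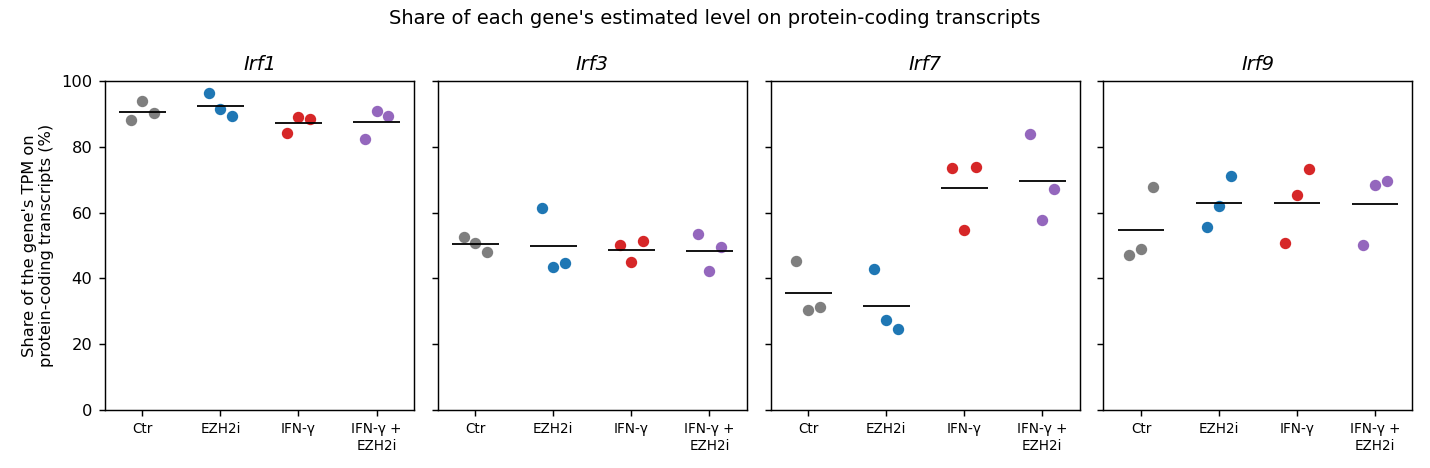
Share of the TPM of Irf1, Irf3, Irf7 and Irf9 on protein-coding transcripts, in percent, with a point for each library and a line for the group mean. Irf7 is the gene of these 4 whose shares with IFN-γ (54.8% to 83.9%) do not overlap those without it (24.5% to 45.1%). How often genes outside the family separate in this way was not computed.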

How the data were processed

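The authors trimmed the reads and quantified transcripts with Salmon 0.8.2, and the deposited estimated counts are its unscaled read numbers per transcript. The deposited TPM values are the same reads divided by effective length and scaled to a constant sum. The kit was stranded total RNA, and the strand setting of the quantifier is not given in the sources used here. The authors' 2 tables of fold changes and p-values were not used.

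Estimated counts and TPM were summed per gene over the GENCODE vM21 annotation of GRCm38, to which all 141862 transcripts matched, and counts were rounded. Groups came from the labels. edgeR 4.0.16 (R 4.3.3) fitted all 12 libraries by group with TMM scaling, its default filter and the quasi-likelihood test; p-values were adjusted by the Benjamini-Hochberg method over 18995 genes, with a threshold of 0.05. CPM are TMM-normalized. Standard errors are the fitted log2 fold change over the root of F. The fit recovered known changes in simulated counts. No 2 replicates agreed within sampling noise (chi-square per gene of at least 32.05 in every pair).

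Named genes were the 8 members, the 2 genes with the largest change among those called in each list, cell type markers, and the 3 genes most alike each member. A few of these genes are not reported here, and the lists are counted and summed without them. Members and lists were chosen with earlier results of these data known. Alternatives were DESeq2 1.42.0, limma 3.58.1 on log2(TPM + 1), RLE factors, other filters, length-scaled TPM, mitochondrial and rRNA genes left out, the compared libraries alone, a replicate block, and each library left out.

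Same-numbered samples deviated together in all pairs among the 3 treated groups (correlations of 0.45 to 0.642), but for replicate 2 the correlations with Ctr were 0.0134 to 0.0854. The numbers were therefore taken as pairing in the 2 contrasts without Ctr. The blocked fit still held all 12 libraries, so the Ctr libraries were blocked by the same numbers and enter its estimates. A blocked fit without the Ctr libraries was not run.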

Additional observations from a re-analysis of the deposited data

How the results depend on the processing

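Over 21 alternatives for the contrasts of IFN-γ, members called stayed at 6, or at 5 where a minimum of 10 counts in every library removed Irf5 or where Irf2 lost its call as given above. In the contrasts of EZH2i and the interaction 0 members were called in every alternative. With the EZH2i and Ctr libraries alone, Irf4 did not pass the filter and 7 members were tested. Leaving out 1 library at a time ended no call of a member. Genes called over all genes tested moved more: 1102 (limma) to 4032 (replicate block) against 1663 for IFN-γ, 970 to 3661 against 1533 for IFN-γ after EZH2i, 11 to 771 against 77 for EZH2i, with 308 by DESeq2, and 7 to 748 against 67 for EZH2i with IFN-γ, with 263 by DESeq2. Without any 1 of Ctr replicates 1, 2 and 3 or EZH2i replicates 1 and 2 the EZH2i count was 11 to 24, and 41 without replicate 2 of IFN-γ with EZH2i. The count for EZH2i with IFN-γ was 10 to 43 without any 1 library other than EZH2i replicate 3 and replicate 3 of IFN-γ with EZH2i. The replicate block gave 6, 6, 0, 0 and 0 members in the same order, and changed no call of a member.

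On the log2(TPM + 1) scale, whose pseudocount shrinks low genes, the called change of Irf5 with IFN-γ was 1.97. Signs turned only in members that were not called, and the cause was not tested. limma on log2(TPM + 1) gave 0.033 for Irf3 with IFN-γ, 0.12, 0.26 and 0.10 for Irf1, Irf3 and Irf9 with EZH2i, -0.069 and -0.067 for Irf1 and Irf9 with EZH2i after IFN-γ, and interactions of -0.19, -0.30, -0.40, 0.13, -0.15 and -0.16 for Irf1, Irf2, Irf3, Irf5, Irf8 and Irf9. Length-scaled TPM gave -0.01 for Irf7 with EZH2i and interactions of -0.016 and -0.053 for Irf2 and Irf8. The replicate block gave -0.029 for Irf8 with EZH2i. With 1 library left out, Irf4 ran from -0.27 to 0.72 with IFN-γ. With EZH2i, Irf3 ran from -0.21 to 0.07, Irf4 from -0.94 to 0.082, Irf8 from -0.24 to 0.18 and Irf9 from -0.05 to 0.019. With EZH2i after IFN-γ, Irf1 ran from -0.036 to 0.16, Irf3 from -0.11 to 0.065, Irf4 from -0.27 to 0.77, Irf7 from -0.46 to 0.04, Irf8 from -0.012 to 0.25 and Irf9 from -0.089 to 0.16. Interactions ran from -0.11 to 0.37 for Irf2, -0.086 to 0.19 for Irf3, -0.98 to 0.31 for Irf5, -0.06 to 0.36 for Irf8 and -0.061 to 0.19 for Irf9.

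The depth limits Irf4, with 4 to 21 counts, and Irf5 in Ctr, with 5 to 21 counts.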
